A study of Mus musculus with 9 samples.

Results

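The SLAM family receptors were described across 3 sorted populations of cultured mouse blood stem and progenitor cells. The members are the 5 genes Slamf1, Cd48, Cd84, Ly9 and Cd244, taken by symbol from the deposited count table, whatever their values. All 5 are among the 49585 genes of the table, and all 5 are among the 11619 genes that passed the filter on low counts. Ly9, the rarest, was under the filter's minimum of 10 counts in the CD201+CD48- libraries and passed through both other populations.

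Wild-type CD34-CD150+KSL cells of C57BL/6 mouse bone marrow (KSL stands for Kit positive, Sca-1 positive, lineage negative) were expanded in F12 medium with 0.1% polyvinyl alcohol, thrombopoietin at 100 ng/ml and stem cell factor at 10 ng/ml. Culture lasted 10 days by the series' design text, whereas the growth protocol speaks of a week. Over 5000 cells of each population were sorted per sample for bulk RNA sequencing, with 3 replicates a population and 9 libraries in all. The populations were CD201+CD150+CD48-KSL, CD201+CD150+CD48+KSL and CD201-KSL, shortened here to CD201+CD48-, CD201+CD48+ and CD201-. Procr encodes CD201, which is the endothelial receptor of protein C and a surface marker of blood stem cells. How CD201- cells were gated for CD150 and CD48 is not certain, since only the sample titles, and neither the treatment label nor the design text, describe them as CD150+CD48+. All groups share the genotype, the culture and the KSL gate, and the labels do not give the age of the mice or say whether replicates came from separate mice or cultures. Spread between replicates, on which the p-values below rest, may for that reason be technical.

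SLAM receptors are immunoglobulin superfamily proteins on the surface of blood cells. CD150 (Slamf1), CD84 (Cd84) and CD229 (Ly9) each bind their own kind on a neighbouring cell, whereas CD244 (Cd244) binds CD48 (Cd48), which is held in the membrane by a lipid anchor and has no cytoplasmic tail. The tails of the others carry tyrosine motifs that recruit the small adaptors SAP and EAT-2 and, through them or in their absence, kinases and phosphatases. In mouse bone marrow, CD150 without CD48 marks stem cells, and CD48, CD244 and CD229 are used to mark or divide multipotent and more restricted progenitors.

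The 5 transcripts fell into 2 patterns. Cd48, Cd244 and Ly9 were all lower in CD201+CD48- cells than in either other population, by 21.2, 6.49 and 3.36-fold against CD201- cells and by 14.2, 2.95 and 4.92-fold against CD201+CD48+ cells. Slamf1 and Cd84 stayed within 1.22-fold in every comparison. CD150 and CD48 proteins were part of the gates of both CD201+ populations, so the Slamf1 and Cd48 values are not independent of the sort. CD201+CD48+ cells held Cd48 and Cd244 at 66.8% and 45.3% of their CD201- levels, below CD201- cells for both genes, while their Ly9 stood at 147% and did not pass the test. In bulk RNA, fewer cells that express a gene and less RNA per cell cannot be told apart.

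Libraries held 3810123 to 7072885 counts, and 13663 to 17845 genes had at least 1 count. CD201- replicate 3 stood apart from its group. Chi-square per degree of freedom over genes was 13.0 and 12.4 between it and CD201- replicates 1 and 2, against 1.36 to 3.44 for the other pairs of replicates. It also had the fewest genes detected. Some results with CD201- cells are given with and without it, and others, such as the marker sums, only with it. Procr, the transcript of the sorted CD201, was at 63.1 ± 3.73 CPM in CD201+CD48-, 26.4 ± 2.16 in CD201+CD48+ and 3.56 ± 1.07 in CD201- cells (mean ± SD, n = 3, where CPM are counts scaled to a common library size after TMM). Kit was between 327 and 539 CPM and Ly6a, which encodes Sca-1, between 5.25 and 23.3 CPM in the 9 libraries, so transcripts of the shared gate were present in all 3 populations. Their levels differed. In CD201+CD48- and CD201+CD48+ cells Kit was 1.45 and 1.33-fold and Ly6a 2.19 and 1.61-fold above CD201- cells, each with an edgeR adjusted p under 0.05.

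All 5 genes lie in 1 cluster on mouse chromosome 1. By RefSeq coordinates on GRCm38.p6, which is the mm10 assembly, Cd244 (as Cd244a) spans 171558718 to 171585316, Ly9 171588613 to 171607410, Cd48 171681245 to 171705258, Slamf1 171767131 to 171801184 and Cd84 171839697 to 171890718. With Slamf7 and Slamf6 the cluster covers 390.2 kb. Cd244 and Cd84 each overlap a long noncoding gene there, Gm35200 and Gm51686, and no source used here says whether counting used strand, so their counts are less certain. The RefSeq promoter table held 1 annotated start for each of Cd48, Cd244a, Cd84 and Slamf1, and no entry for Ly9. The 250 bases before that start are shown on the plus strand. They are given for Cd48 at chr1:171681742-171681991 and Cd244a at chr1:171558943-171559192, whose transcripts, like that of Ly9, were lower in CD201+CD48- cells. They are also given for Cd84 at chr1:171839447-171839696, which was not called in any comparison. The starts are those of the promoter table, and for Cd48 and Cd244a the window lies inside the full gene span given above, which begins earlier. Capitals mark a match to any of 4 motifs searched on both strands.
Cd48: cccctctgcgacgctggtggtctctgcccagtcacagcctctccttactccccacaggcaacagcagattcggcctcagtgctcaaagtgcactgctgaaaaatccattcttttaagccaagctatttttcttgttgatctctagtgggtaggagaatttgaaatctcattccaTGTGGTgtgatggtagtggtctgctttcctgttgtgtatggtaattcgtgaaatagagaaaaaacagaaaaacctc
Cd244a: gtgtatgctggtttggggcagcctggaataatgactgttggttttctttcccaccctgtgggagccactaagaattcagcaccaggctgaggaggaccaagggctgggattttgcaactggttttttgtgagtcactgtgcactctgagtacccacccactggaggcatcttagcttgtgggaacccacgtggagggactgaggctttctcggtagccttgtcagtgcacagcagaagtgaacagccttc
Cd84: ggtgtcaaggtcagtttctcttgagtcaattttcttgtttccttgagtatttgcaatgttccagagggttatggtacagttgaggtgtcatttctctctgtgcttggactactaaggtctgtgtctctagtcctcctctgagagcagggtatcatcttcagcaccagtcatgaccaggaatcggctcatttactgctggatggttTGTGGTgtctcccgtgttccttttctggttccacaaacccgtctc
GGAAGT stood for the core bound by ETS family factors. For GATA family factors the letters searched were AGATAA. RUNX factors were given the core TGTGGT, and the palindrome CAGCTG stood for an E-box. Cd48 and Cd84 each held 1 match, to the RUNX motif, with no overlap of another motif. Cd244a and Slamf1 held none. Of 32851 RefSeq promoter windows of the same length, 14.0% held the RUNX motif, 19.7% the ETS motif, 9.99% the GATA motif and 13.0% the E-box. A match is a description of the letters and says nothing of what binds there.

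**Figure D1:**
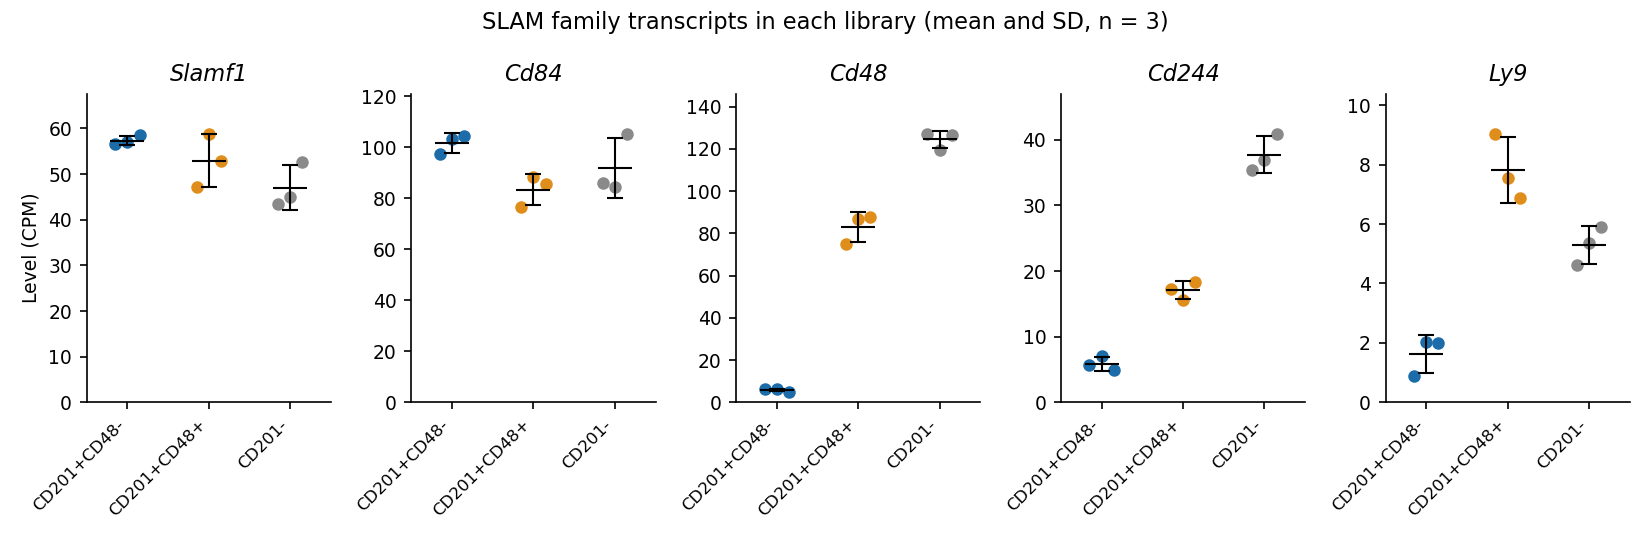
Level of each SLAM family transcript in each library, in CPM (linear axis from 0), by population. Points are the 3 replicates, horizontal lines the mean and bars the SD. Cd48 and Cd244 separate the 3 populations, Ly9 separates CD201+CD48- libraries (0.881 to 2.02 CPM) from the rest, and Slamf1 and Cd84 differ less, with Slamf1 libraries of CD201+CD48+ and Cd84 libraries of CD201- cells overlapping both other populations.

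Counts were compared with the quasi-likelihood test of edgeR over all 11619 genes, with Benjamini-Hochberg adjusted p under 0.05 counted as called. Of the 5 members, 3 were lower against CD201- cells in the CD201+CD48- population, 1 was higher and 1 did not pass. Over all genes tested 23.9% were called lower and 24.1% higher. The members' median log2 fold change was -1.75 against 0.00271 over all genes. Between CD201+CD48+ and CD201- cells, 2 members were lower and 0 higher by edgeR, and 3 did not pass. Without adjustment Ly9 was the 1 member higher at a threshold of 0.05, and DESeq2 and limma-voom also called 0 higher. The background there was 14.3% lower and 14.8% higher, and the medians were -0.14 for the members and -0.00263 for all genes. Between CD201+CD48- and CD201+CD48+ cells, 3 members were lower and 0 higher by edgeR, and 2 did not pass. Without adjustment Cd84 was the 1 member higher at that threshold, and DESeq2 and limma-voom also called 0 higher. The background there was 6.33% lower and 9.05% higher, and the medians were -1.56 and -0.00544. The comparisons share populations, so they are not independent of each other. Cd48 and Slamf1 are among the 5 and their proteins were part of the gates, so the members' counts and medians partly reflect the sort. Of the members outside the gates, Cd244 and Ly9 were lower in both comparisons of CD201+CD48- cells, and Cd84 was not called. With library size alone in place of TMM, the median of all genes moved by 0.169, 0.133 and 0.036 in the 3 comparisons, and the genes called higher and lower went from 2801 and 2782 to 3964 and 1691 in CD201+CD48- against CD201- cells and from 1718 and 1663 to 2691 and 857 in CD201+CD48+ against CD201- cells. The number of genes called between the CD201+ populations, 1788, depended most on the libraries fitted: it was 3474 without CD201- replicate 3, and between 1021 and 1179 without any 1 of the CD201+CD48- libraries or without CD201+CD48+ replicate 2 or 3.

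**Figure D2:**
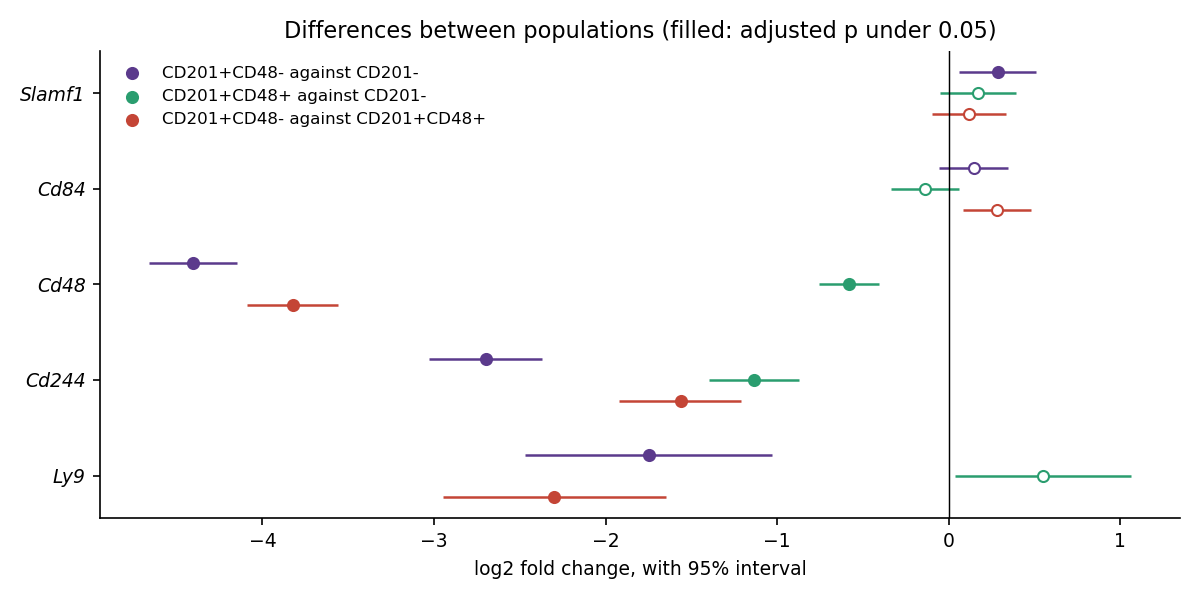
Log2 fold change of each SLAM family gene in the 3 comparisons, with 95% intervals from the edgeR fit. Filled points have an adjusted p under 0.05. Cd48, Cd244 and Ly9 lie far below 0 in both comparisons of CD201+CD48- cells, and Slamf1 and Cd84 lie within 0.29 of 0 in all 3.

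Slamf1 encodes CD150, the self-binding receptor on which cultures were started and on which both CD201+ populations were sorted. Its level was 56.5, 57.0 and 58.5 CPM in the CD201+CD48- libraries, 47.2, 58.8 and 52.8 CPM in the CD201+CD48+ libraries and 43.5, 44.9 and 52.7 CPM in the CD201- libraries. The CD201+CD48- libraries were all above the CD201- libraries, and the CD201+CD48+ range overlapped both. The fitted level was 1.22-fold higher in CD201+CD48- than in CD201- cells, a log2 fold change of 0.29 ± 0.105 (SE, 95% interval 0.0611 to 0.51, edgeR adjusted p = 0.0357). This call was lost in 8 of 17 alternative analyses, with adjusted p between 0.00147 and 0.118. Without CD201- replicate 3 the log2 fold change was 0.375 (adjusted p = 0.00179). Differences between CD201+CD48+ and CD201- cells (0.17, interval -0.052 to 0.39, adjusted p = 0.239) and between the CD201+ populations (0.12, interval -0.1 to 0.333, adjusted p = 0.497) did not pass the test. Without CD201- replicate 3 the first of these was 0.26 with an adjusted p of 0.0384. The order of the means, 57.35 ± 1.05, 53.0 ± 5.81 and 47.0 ± 4.95 CPM (SD, n = 3), therefore separates only its ends. By the titles CD201- cells were gated as CD150+ too, and by the treatment label they were not. The part of the gate in the Slamf1 differences from CD201- cells therefore cannot be told apart.

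Cd84 encodes another self-binding receptor, which is also carried by platelets and their megakaryocyte precursors. Its level was 97.2, 103 and 104 CPM in the CD201+CD48- libraries, 76.4, 88.25 and 85.5 CPM in the CD201+CD48+ libraries and 85.9, 84.2 and 105 CPM in the CD201- libraries. The CD201+CD48- and CD201+CD48+ libraries did not overlap, and the highest single value was that of CD201- replicate 3, the library that stood apart. Between the CD201+ populations the log2 fold change was 0.28 ± 0.0936 (interval 0.0838 to 0.482) with an edgeR adjusted p of 0.0532, and 6 of 17 alternatives called it, among them the fit without CD201- replicate 3 (0.28, adjusted p = 0.00152) and the fit of these 2 groups alone (0.28, adjusted p = 0.00208). Against CD201- cells the difference was 0.14 (interval -0.0569 to 0.346, adjusted p = 0.225) for CD201+CD48- and -0.14 (interval -0.339 to 0.0622, adjusted p = 0.29) for CD201+CD48+ cells. Without CD201- replicate 3 the first was 0.25 with an adjusted p of 0.0076. Megakaryocyte and platelet markers (9 genes, none at 0) summed to 797 to 806 CPM in CD201+CD48-, 283 to 290 in CD201+CD48+ and 540 to 666 in CD201- libraries, the same order of populations as the Cd84 means. Their part in the Cd84 values was not tested.

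Within a library the ratio of Cd84 to Slamf1 counts needs no scaling, and it varied little. It was 1.72, 1.81 and 1.78 in CD201+CD48-, 1.62, 1.5 and 1.62 in CD201+CD48+ and 1.97, 1.88 and 2 in CD201- libraries, with no overlap between any pair of populations. In log2 units the differences were -0.14, -0.30 and 0.17 for the 3 comparisons in the order above. An exact two-sided permutation test gave p = 0.1 for each, which is the smallest p that 3 against 3 samples allow. This ratio, like that of Ly9 to Cd244 below, was chosen after its values were seen, and with 9 ratio tests in the family the adjusted value was 0.1125.

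Cd48 encodes the ligand of CD244. Its level was 6.165, 6.30 and 5.08 CPM in the CD201+CD48- libraries, 74.8, 86.7 and 87.8 CPM in the CD201+CD48+ libraries and 127, 119.7 and 127 CPM in the CD201- libraries, with no overlap between populations. CD48 protein was part of the gate that separates both CD201+ populations, so the difference between them, a log2 fold change of -3.82 ± 0.124 (edgeR adjusted p = 3.61e-11), follows from the sort and checks its labels. The sort did not remove the transcript: CD201+CD48- libraries held 83 Cd48 counts in all, or 7.04% of the CD201+CD48+ level. Between CD201+CD48+ and CD201- cells the log2 fold change was -0.58 ± 0.0834 (interval -0.759 to -0.404, adjusted p = 0.000107), and it was -0.565 without CD201- replicate 3. By the titles both of these populations were gated as CD48+, and by the treatment label only the first, so the part of the gate in this difference cannot be told apart. Of the whole log2 difference between CD201- and CD201+CD48- cells (-4.40 ± 0.122, adjusted p = 1.23e-12), 86.8% lay between the CD201+ populations. CD201+CD48- cells were gated without CD48, so the sort bears on this difference too, and it is no result apart from the gate.

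The ratio of Cd48 to Slamf1 counts sets the 2 transcripts of the classical stem cell gate against each other within a library. It was 0.109, 0.111 and 0.0868 in CD201+CD48- libraries, 1.58, 1.47 and 1.66 in CD201+CD48+ libraries and 2.92, 2.67 and 2.4 in the CD201- libraries. No populations overlapped, and CD201- libraries were above CD201+CD48+ libraries. The differences of the log2 ratio were -4.71, -0.76 and -3.95 in the order of comparisons above, each with p = 0.1 by an exact two-sided permutation test, again the smallest possible. CD48 protein in the gate separates both CD201+ populations, so the difference between them follows from the sort. The sort bears on the difference of CD201+CD48- from CD201- cells as well. Neither of these tests is support apart from the gate.

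Cd244 encodes the receptor of CD48 and was not part of any gate the labels give. Its level was 5.64, 7.06 and 4.86 CPM in the CD201+CD48- libraries, 17.2, 15.65 and 18.4 CPM in the CD201+CD48+ libraries and 35.3, 37.0 and 40.9 CPM in the CD201- libraries. The 3 populations did not overlap, and CD201+CD48+ libraries lay between the others. The log2 fold change was -2.70 ± 0.156 (interval -3.03 to -2.37, edgeR adjusted p = 2.77e-09) for CD201+CD48- against CD201- cells and -1.56 ± 0.168 (interval -1.92 to -1.21, adjusted p = 1.3e-05) for CD201+CD48- against CD201+CD48+ cells. CD201+CD48+ cells differed from CD201- cells by -1.14 ± 0.125 (interval -1.4 to -0.87, adjusted p = 8.71e-06). Of its log2 difference between the ends, 57.9% lay between the CD201+ populations. All 3 calls were kept in each of the 17 alternatives. Mast cell and basophil markers (8 genes, with Cma1 and Tpsb2 at 0 in all libraries) summed to 6.78 to 8.83 CPM in CD201- libraries against 1.59 to 3.53 in CD201+CD48- and 1.65 to 2.83 in CD201+CD48+ libraries. Most of the CD201- sum was Cpa3, the only 1 of the 8 that was tested. Cpa3 was at 6.765 ± 0.646, 1.49 ± 0.709 and 1.945 ± 0.475 CPM in the same order, and Fcer1a had 2, 6 and 0 counts. T, B and NK cell markers (11 genes, with Cd3e, Cd3g and Ms4a1 at 0 in all libraries) summed to 10.9 to 23.6, 11.6 to 12.7 and 12.6 to 15.5 CPM in the same order, and among them Nkg7 was at 13.4 ± 4.01 CPM in CD201-, 6.06 ± 0.865 in CD201+CD48+ and 1.56 ± 1.10 in CD201+CD48- cells, while Cd79b ran the other way at 4.43 ± 2.14, 7.38 ± 0.905 and 9.75 ± 0.746 CPM. Macrophage, neutrophil and dendritic cell markers (11 genes, with Ly6g and S100a9 at 0 in all libraries) summed to 21.4 to 24.7 CPM in CD201-, 8.11 to 13.9 in CD201+CD48+ and 14.1 to 18.4 in CD201+CD48- libraries. Of these Mpo was at 10.2 ± 1.84 and 1.24 ± 0.439 CPM in the first pair and at 0 in CD201+CD48- libraries, and Ctsg had 40, 8 and 2 counts. Cd68 ran the other way, at 6.83 ± 0.793, 7.17 ± 2.299 and 12.23 ± 2.005 CPM. It was called higher in CD201+CD48- cells than in either other population. Csf1r, at 2.84 ± 0.606, 2.73 ± 1.23 and 3.33 ± 0.187 CPM, was not called in any comparison. Erythroid markers (7 genes, with Hba-a1 at 0 in all libraries) ran against Cd244, with sums of 50.7 to 94.1 CPM in CD201-, 136 to 149 in CD201+CD48+ and 197 to 225 in CD201+CD48- libraries. The part of such cells in the Cd244 and Cd48 levels was not tested.

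Ly9 encodes CD229, the last self-binding receptor among the members. It was the rarest of the 5 transcripts, with 5, 8 and 9 counts in the CD201+CD48- libraries, 53, 40 and 50 counts in the CD201+CD48+ libraries and 21, 25 and 27 counts in the CD201- libraries. As levels these were 0.881, 2.02 and 1.99 CPM, then 9.035, 7.54 and 6.86 CPM, and then 4.64, 5.37 and 5.90 CPM. The populations did not overlap, and unlike those of Cd48 and Cd244 the highest values were those of CD201+CD48+ libraries. CD201+CD48- cells differed from CD201- cells by a log2 fold change of -1.75 ± 0.337 (interval -2.47 to -1.03, edgeR adjusted p = 0.000527) and from CD201+CD48+ cells by -2.30 ± 0.306 (interval -2.95 to -1.65, adjusted p = 0.000102). The excess in CD201+CD48+ over CD201- cells, 0.55 ± 0.242 (interval 0.0354 to 1.06), had an adjusted p of 0.1 and is not a call. Without CD201- replicate 3 it was 0.63 with an adjusted p of 0.0592.

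The ratio of Ly9 to Cd244 counts was 0.525, 0.482 and 0.373 in CD201+CD48+ libraries, 0.131, 0.145 and 0.144 in the CD201- libraries and 0.156, 0.286 and 0.409 in CD201+CD48- libraries. The CD201+CD48+ and CD201- libraries were far apart, and the CD201+CD48- libraries, with few Ly9 counts, spread from the one towards the other. By exact two-sided permutation tests the log2 difference was 1.7 for CD201+CD48+ against CD201- cells (p = 0.1), 0.91 for CD201+CD48- against CD201- cells (p = 0.1) and -0.79 between the CD201+ populations (p = 0.2), where 0.1 is the smallest p possible.

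**Figure D3:**
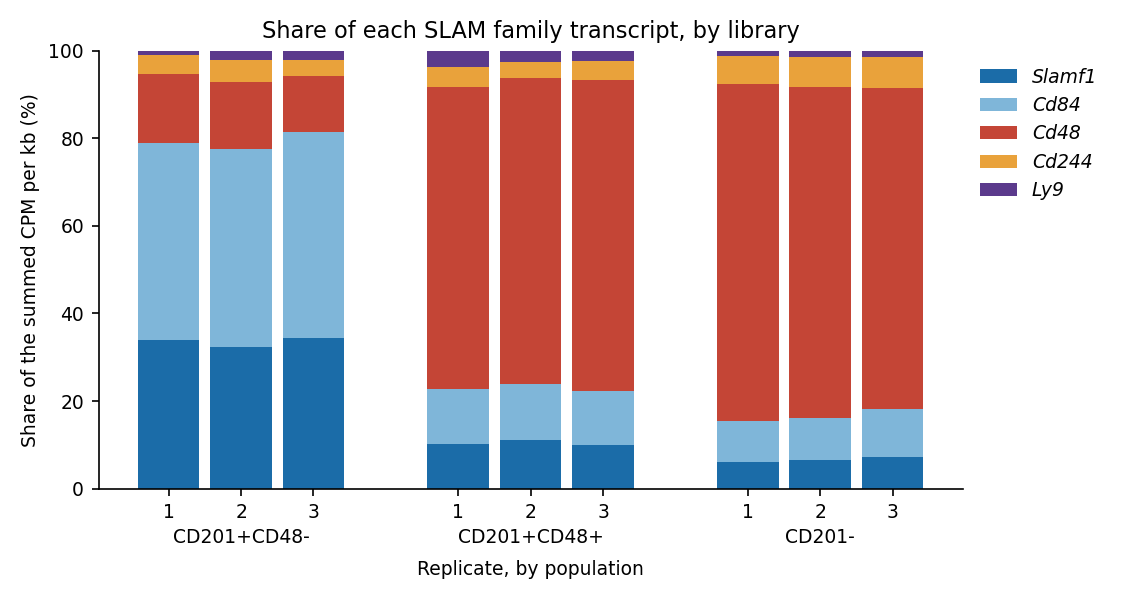
Share of each SLAM family transcript in the summed level of the 5, in percent of CPM per kb of merged exons, for each of the 9 libraries. In CD201+CD48- libraries Cd84 (44.9 to 47.1%) and Slamf1 (32.4 to 34.4%) fill most of each bar, and in the other populations Cd48 does (68.9 to 77.0%). CD201+CD48- cells were gated without CD48, so this difference is not independent of the sort.

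Levels of the 5 genes were compared with each other per kb of merged exon length. In CD201+CD48- cells Cd84 was highest at 12.6 ± 0.47 CPM per kb, followed by Slamf1 at 9.3 ± 0.171, Cd48 at 4.05 ± 0.463, Cd244 at 1.19 ± 0.226 and Ly9 at 0.49 ± 0.195 (SD, n = 3), and each neighbour in this order was separated by more than the SDs. In CD201+CD48+ cells the order was Cd48 at 57.6 ± 4.99, Cd84 at 10.4 ± 0.774, Slamf1 at 8.59 ± 0.941, Cd244 at 3.47 ± 0.279 and Ly9 at 2.35 ± 0.334 CPM per kb. Cd84 and Slamf1 differed there by little more than their SDs on this length, but by more with the longest transcript as length, at 17.3 ± 1.29 and 12.0 ± 1.31. In CD201- cells it was Cd48 at 86.2 ± 2.89, Cd84 at 11.4 ± 1.45, Cd244 at 7.65 ± 0.58, Slamf1 at 7.63 ± 0.803 and Ly9 at 1.59 ± 0.191 CPM per kb. Cd244 and Slamf1 could not be ranked there, and with the longest transcript as length Slamf1 (10.6) stood above Cd244 (9.99). That length also put Cd84 in CD201+CD48- cells at 21.0 in place of 12.6 CPM per kb, with the order of the 5 genes in that population and in CD201+CD48+ cells the same. The family's make-up thus differed in its leading transcript. CD201+CD48- cells were gated without CD48, so the loss of the lead by Cd48 is no result apart from the sort. The shares of Cd84 and Slamf1 depend on the Cd48 in the sum. Cd84 and Slamf1 were 45.7 ± 1.21% and 33.6 ± 1.04% of the summed CPM per kb of the 5 in CD201+CD48- cells, and Cd48 was 69.9 ± 0.975% and 75.3 ± 1.79% of it in CD201+CD48+ and CD201- cells. The sum itself was 27.0, 28.5 and 27.6 CPM per kb in CD201+CD48- libraries, 75.2, 86.0 and 85.8 in CD201+CD48+ libraries and 114.4, 109.8 and 119.4 in the CD201- libraries, and most of that rise was Cd48.

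The other receptors of the family and the adaptors were close to absent from the count table and none passed the filter. Over all 9 libraries Slamf9 had 33 counts, Slamf7 25, Slamf6 9 and Slamf8 5. The adaptor SAP (Sh2d1a) had 1 count, and the EAT-2 family genes Sh2d1b1 and Sh2d1b2 had 7 and 3, which are uncertain because the genes are near-identical copies. Cd2, the other partner of CD48 on mouse lymphocytes, had 0 counts in all 9 libraries, which allows up to 0.212, 0.163 and 0.218 CPM over the CD201+CD48-, CD201+CD48+ and CD201- libraries (3 counts over each group, counting error only). None of these genes was tested. Slamf9 had 1, 1 and 1 counts in the CD201+CD48- libraries, 5, 4 and 4 in the CD201+CD48+ libraries and 5, 7 and 5 in the CD201- libraries. As levels, 0.176 to 0.252, 0.549 to 0.852 and 1.09 to 1.50 CPM, these did not overlap and had the order of Cd48 and Cd244. Slamf7 had 1, 13 and 11 counts in the same populations, of which CD201- replicate 3 held 8.

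Of 24 genes that act below SLAM receptors in textbook accounts (kinases, phosphatases, adaptors and phospholipases), all were tested. Between CD201+CD48- and CD201- cells 4 were higher (Prkcq, Src, Dok1, Cbl), 4 lower (Fyn, Grb2, Csk, Becn1) and 16 did not pass, with a median log2 fold change of 0.0113 against 0.00271 over all genes. Both counts of 4 are below the 24.1% and 23.9% of all genes called. Between CD201+CD48+ and CD201- cells 2 were higher (Prkcq, Src) and 4 lower (Grb2, Dok2, Csk, Ptpn11), with a median of -0.0611, where 14.8% and 14.3% of all genes were called. Between the CD201+ populations 3 were higher (Prkcq, Src, Dok2) and 2 lower (Fyn, Plcg1), with a median of 0.0501, where 9.05% and 6.33% of all genes were called. Counts this small lie within 1 or 2 genes of those shares.

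Prkcq and Src were the pair called in all 3 comparisons. Prkcq, which encodes protein kinase C theta, was at 100.4, 95.04 and 100.3 CPM in CD201+CD48-, 51.0, 56.9 and 53.2 in CD201+CD48+ and 27.4, 26.6 and 35.0 in CD201- libraries. The populations did not overlap, in the reverse order of Cd48 and Cd244, and the log2 fold changes were 1.73 ± 0.105, 0.85 ± 0.107 and 0.88 ± 0.0953 for CD201+CD48- against CD201-, CD201+CD48+ against CD201- and CD201+CD48- against CD201+CD48+ cells (edgeR adjusted p = 4.6e-09, 3.03e-05 and 1.48e-05). Src, the founding kinase of its family, was at 10.6, 7.815 and 8.395 CPM, then 2.90, 2.64 and 1.92 CPM, and then 0.883, 1.50 and 0.656 CPM in the same order of populations. Its log2 fold changes were 3.12 ± 0.339, 1.25 ± 0.413 and 1.87 ± 0.268 (edgeR adjusted p = 2.59e-06, 0.0332 and 0.000196), and the second was lost in 6 of 17 alternatives, among them the fits without CD201- replicate 1, CD201- replicate 3 (1.02, adjusted p = 0.086), CD201+CD48+ replicate 1 or CD201+CD48+ replicate 2, with adjusted p up to 0.0954. CD201- libraries held 3 to 7 Src counts each.

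Fyn, the kinase that SAP recruits, moved the other way and by less. It was at 83.6 ± 4.98, 103 ± 8.46 and 119 ± 13.5 CPM in CD201+CD48-, CD201+CD48+ and CD201- cells. CD201+CD48- cells were below CD201- cells, with a log2 fold change of -0.51 ± 0.0954 (edgeR adjusted p = 0.000433), and its call between the CD201+ populations (-0.30, adjusted p = 0.0421) was lost in 9 of 17 alternatives, among them the omission of any 1 CD201+ library, with adjusted p up to 0.167. Grb2, an adaptor of receptor signalling, and Csk, the kinase that restrains Src family members, were lower in each CD201+ population than in CD201- libraries, with log2 fold changes of -0.44 and -0.33 for Grb2 (adjusted p = 0.000103 and 0.00229) and -0.41 in each for Csk (adjusted p = 0.00156 and 0.00328). Both Csk calls were lost with library size alone (-0.246 and -0.28, adjusted p = 0.0662 and 0.0545). Dok2, a docking protein, was lower in CD201+CD48+ cells than in either other population, at a log2 fold change of -0.45 against CD201- cells (adjusted p = 0.00322) and with CD201+CD48- cells 0.47 above it (adjusted p = 0.00372). Plcg1, a phospholipase C, was lower in CD201+CD48- than in CD201+CD48+ cells at -0.36 (adjusted p = 0.022), a call lost without CD201+CD48- replicate 1, CD201+CD48+ replicate 1 or CD201+CD48+ replicate 3, with adjusted p up to 0.141. The phosphatase genes Ptpn6 (SHP-1) and Inpp5d (SHIP-1), which SLAM tails can recruit without SAP, were well expressed, at 299, 287 and 300.5 CPM and at 229.8, 221 and 212 CPM in CD201+CD48-, CD201+CD48+ and CD201- cells, and did not pass the test in any comparison.

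**Figure D4:**
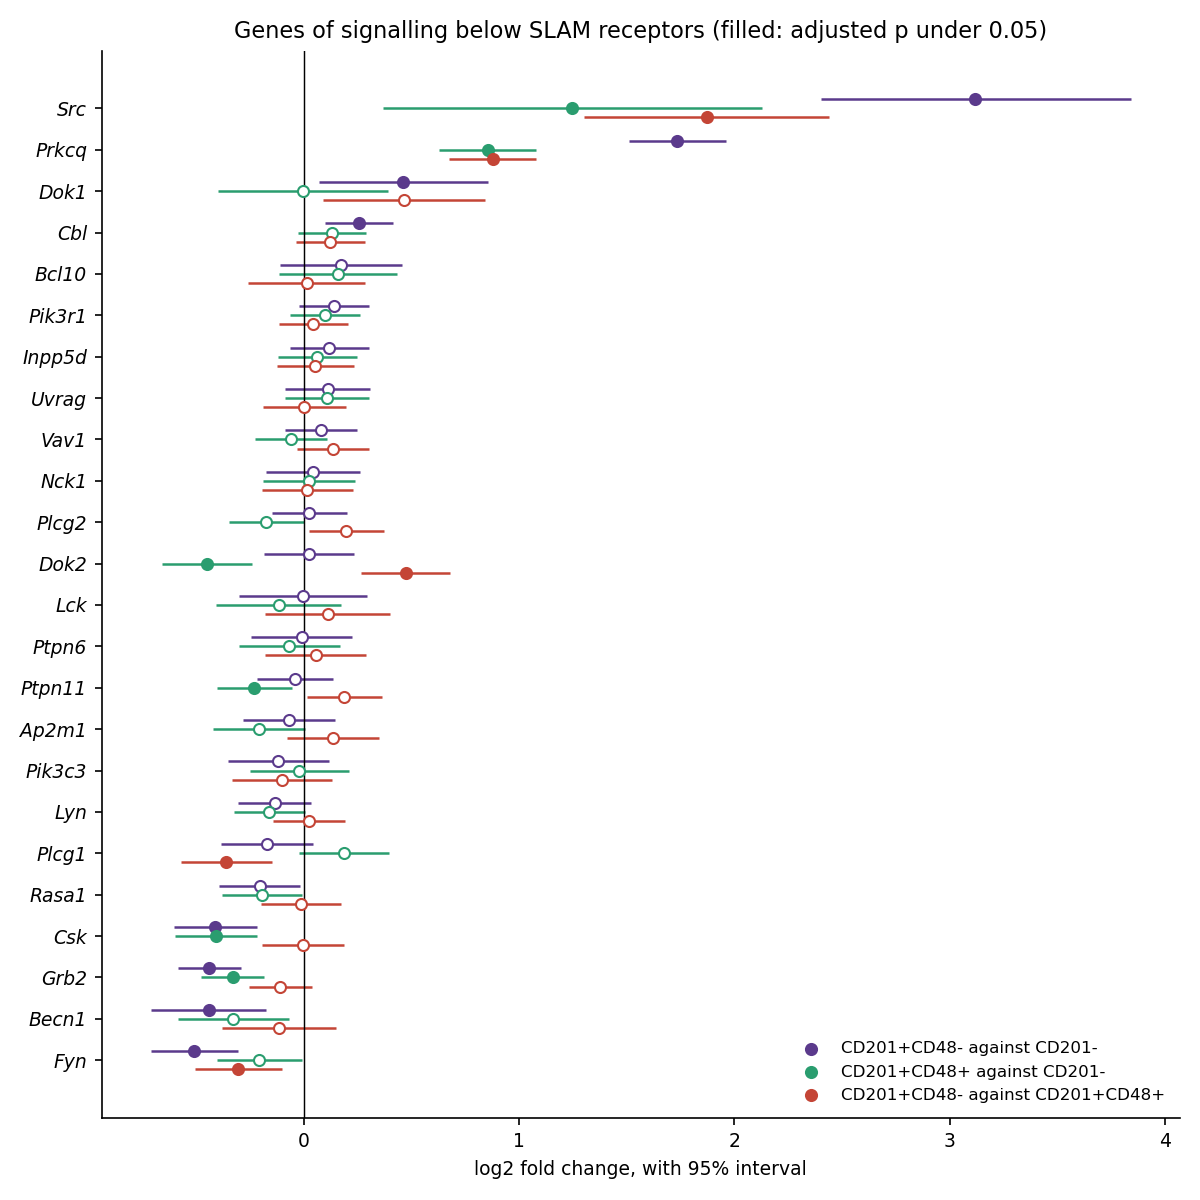
Log2 fold change of the 24 genes of signalling below SLAM receptors in the 3 comparisons, with 95% intervals, sorted by the change between CD201+CD48- and CD201- cells. Filled points have an edgeR adjusted p under 0.05. Src and Prkcq stand to the right of 0 in all 3 comparisons and most other intervals reach or lie near 0.

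**Figure D5:**
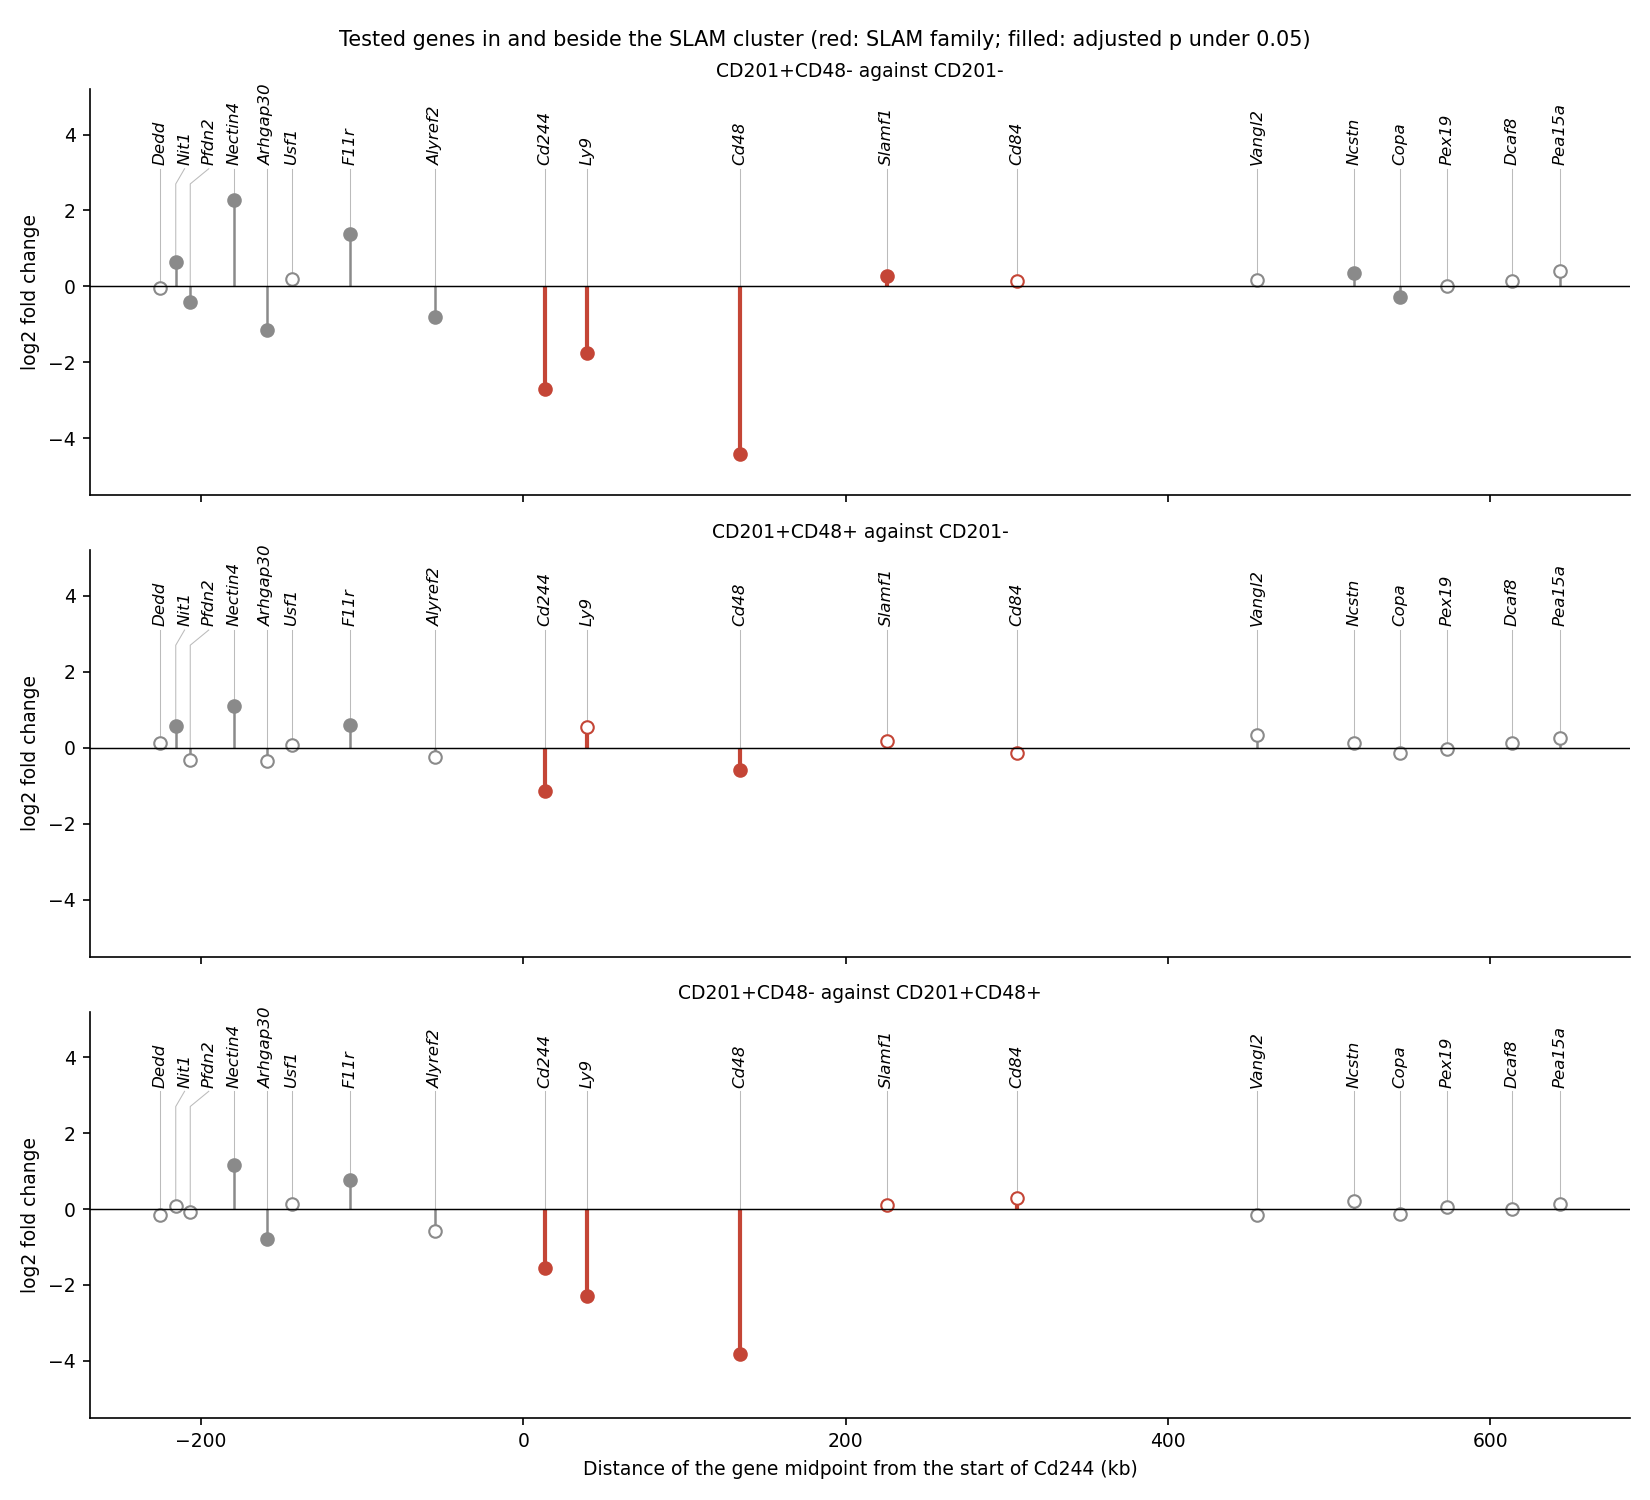
Log2 fold change of tested genes within 250 kb of the SLAM cluster by distance of the gene's midpoint from the start of Cd244 in kb, 1 panel per comparison. Red marks the 5 SLAM genes, grey the 14 other genes, and filled points an edgeR adjusted p under 0.05. Large differences of both signs lie on the Cd244 side of the cluster, and the genes beyond Cd84 lie within 0.394 of 0.

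Within 250 kb of either end of the cluster the annotation lists 39 genes, and 14 of those outside the family were tested. Between CD201+CD48- and CD201- cells 4 were higher (Nectin4, F11r, Nit1, Ncstn), 4 lower (Arhgap30, Alyref2, Pfdn2, Copa) and 6 did not pass, with a median log2 fold change of 0.162. Against 24.1% and 23.9% of all genes, these counts of 4 in 14 are near the background and are no result about the neighbourhood. Between CD201+CD48+ and CD201- cells 3 were higher (Nectin4, F11r, Nit1) and 11 did not pass, and between the CD201+ populations 2 were higher (Nectin4, F11r) and 1 lower (Arhgap30), where 14.8% of all genes were called higher in the former comparison and 9.05% higher and 6.33% lower in the latter. The Nit1 call in CD201+CD48+ cells was lost without CD201+CD48+ replicate 3, with an adjusted p of 0.0712. F11r, which encodes the junctional adhesion molecule JAM-A, was at 58.1, 51.9 and 57.2 CPM in CD201+CD48-, 34.6, 32.6 and 31.0 in CD201+CD48+ and 24.7, 19.8 and 20.3 in CD201- libraries. These ranges did not overlap and ran against those of Cd244, which lies nearest to it among the members, with log2 fold changes of 1.37 ± 0.113, 0.60 ± 0.117 and 0.77 ± 0.104 in the 3 comparisons (edgeR adjusted p = 1.41e-07, 0.00143 and 0.000114). Nectin4, another adhesion molecule, had the same order at lower levels, 7.84 ± 0.891, 3.51 ± 0.456 and 1.60 ± 0.564 CPM, and the CD201+CD48+ call against CD201- (1.11, adjusted p = 0.0209) was lost without CD201- replicate 2 or 3 or CD201+CD48+ replicate 1, with adjusted p up to 0.0629. Arhgap30 was lower in CD201+CD48- cells than in CD201- cells, at -1.14 ± 0.163 (adjusted p = 0.000104), and than in CD201+CD48+ cells, at -0.80 ± 0.163 (adjusted p = 0.00546). Its CD201- level, 279.8, 270.3 and 457 CPM, was uneven, with CD201- replicate 3 the highest, and without that library the first difference was -0.85.

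The genes whose log2 CPM was most like that of each member were sought among 8831 tested genes with a mean of at least 10 CPM, by Pearson's r over the 9 libraries. The 9 libraries share 3 populations, so r here mostly describes the order of the 3 population means and is given without a test. Cd48 was most like Slco3a1 (r = 0.9975), Plekhg3 (0.988) and Slc22a3 (0.985), and Cd244 most like Bin1 (0.995), Mcm5 (0.992), a subunit of the replicative helicase, and Bcat1 (0.991), a transaminase of branched-chain amino acids. Slc22a3, an organic cation transporter, was at 2.13 ± 0.685, 44.9 ± 1.90 and 129.5 ± 13.6 CPM in CD201+CD48-, CD201+CD48+ and CD201- cells. Ly9 was most like Galnt6 (0.965), Cd34 (0.9605) and Dcaf11 (0.960). Cd34, the surface antigen whose absence was used to start the cultures, was at 91.1, 104 and 94.3 CPM in CD201+CD48-, 205, 208 and 204 in CD201+CD48+ and 187, 185 and 182 in CD201- libraries, highest in CD201+CD48+ libraries as Ly9 was. Slamf1 was most like Oxr1 (0.985), Snx2 (0.954) and Ythdc2 (0.951), and Cd84 most like Rab12 (0.948), Zeb2 (0.929) and Hsdl1 (0.9265). Among the members themselves r was 0.9445 for Cd48 and Cd244, 0.881 for Cd48 and Ly9, 0.738 for Ly9 and Cd244 and 0.649 for Slamf1 and Cd84, while Slamf1 and Cd48 gave -0.65.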

How the data were processed

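Bulk RNA of 9 samples, 3 replicates of each of 3 sorted populations, was sequenced as paired reads of 36 nt after SMARTer cDNA synthesis, per the labels' protocols. Counts in the deposited table are whole numbers for each gene symbol, without normalization by the authors. The submitters' processing notes name mm10 and DESeq2 without versions, with alignment, counting and strand setting not given in the sources used here. The deposited table of normalized values and 3 columns that matched no sample label were not used.

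Samples were grouped by title. The filterByExpr function of edgeR (minimum count 10) selected the genes tested, and counts were scaled by TMM and tested by quasi-likelihood F tests in edgeR 4.0.16 (R 4.3.3, limma 3.58.1), with all 9 samples in one fit, group as the only factor and a common biological coefficient of variation of 8.64%. P-values were adjusted by Benjamini-Hochberg over all 11619 genes, with a threshold of 0.05. SE is the absolute log2 fold change over the square root of F, and 95% intervals use the t quantile of the fit. The prior count of log2 CPM was 2. CPM per kb used merged exon lengths of GENCODE vM39, and only lengths were taken from it. The test was tried on simulated counts with 200 changed genes.

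The text names all members and the lists of other family receptors, SAP adaptors and Cd2, the 4 signalling genes and up to 3 neighbouring genes with the smallest p per comparison, and the 3 genes most like each member. Further names given with a count of 5 or fewer, and Ptpn6 and Inpp5d, were chosen after their values were seen. So were the single markers Cpa3, Fcer1a, Nkg7, Cd79b, Mpo, Ctsg, Cd68 and Csf1r, picked from their lists. The members and lists were chosen with earlier results of these data known. Replicate numbers were not shown to pair samples. The 17 alternatives comprised 8 other settings and the omission of each of the 9 libraries, with DESeq2 1.42.0 among them. Plots were made in Python 3.11.15 with matplotlib 3.10.9.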

Additional observations from a re-analysis of the deposited data

How the results depend on the processing

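Leaving out 1 library, the log2 fold change of Slamf1 between CD201+CD48- and CD201- cells ranged from 0.233 to 0.375, and the call was lost without CD201+CD48- replicate 1, 2 or 3, CD201- replicate 1 or 2, or CD201+CD48+ replicate 3. It was also lost with no filter on low counts (0.272, adjusted p = 0.0511) and with DESeq2 (0.284, adjusted p = 0.0655). With library size alone, 4 differences became calls: Cd84 in CD201+CD48- against CD201- (0.318) and against CD201+CD48+ cells (0.319), and Slamf1 (0.306) and Ly9 (0.686) in CD201+CD48+ against CD201- cells. Without CD201- replicate 3, 3 became calls: Cd84 against CD201- cells (leave-one-out range 0.0862 to 0.253), Slamf1 in CD201+CD48+ against CD201- cells (0.0949 to 0.261) and Cd84 between the CD201+ populations (0.225 to 0.321). The last was also called without CD201- replicate 2, with no filter (0.266), with a minimum count of 30 (0.293) and with these 2 groups alone (0.283). Genes called between the CD201+ populations numbered 3358 with these 2 groups alone and 1021 to 3474 with 1 library left out. These changes of call had a cause that was not tested. Calls of Cd48 and Cd244 in all 3 comparisons, and of Ly9 in both comparisons of CD201+CD48- cells, were kept in all 17 alternatives, and no member changed sign.

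The replicate block changed no call of a member, and it gave 5325, 3044 and 1444 called genes against 5583, 3381 and 1788. Same-numbered libraries deviated with r from -0.113 to 0.0447, and other pairs from -0.0722 to 0.1, so the numbers are not taken to pair samples. Depth limits Ly9, Src and the receptors and adaptors under the filter most.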
